A study of Drosophila melanogaster with 10 samples.

Results

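The proteasome is the large protease that degrades proteins tagged with ubiquitin. Its 20S core is a barrel of outer alpha rings, which gate the entrance, and inner beta rings, which hold the proteolytic sites. The 19S regulatory particle caps the barrel: a base with a ring of Rpt ATPases unfolds substrates and threads them into the core, and a lid of Rpn subunits removes ubiquitin before entry. Flies also carry paralogs of several subunits, many of them known for expression in the testis. Early embryos rely on proteasomes for the timed destruction of cyclins and maternal proteins.

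The genes described here were all probe sets whose annotation names a single gene with a symbol that starts with Prosalpha, Prosbeta, Rpn or Rpt followed by a digit. The rule found 41 probe sets for 39 genes among 13966 non-control probe sets of an Affymetrix Drosophila genome array. They comprise 6 genes of the 20S alpha ring, 6 of the beta ring, 4 ATPases of the 19S base, 3 other base subunits, 7 lid subunits and 13 paralogs. A mean signal above 53.36 was required for testing, and 30 of the 41 probe sets, for 29 genes, passed it. The 11 that did not pass were 10 paralogs and 1 of the Prosalpha7 probe sets (142055_at).

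RNA came from whole Drosophila melanogaster embryos. The study asked which transcripts respond to ionising radiation through Dmp53, the fly p53 homolog, a transcription factor that acts after DNA damage. Dmp53NS mutant embryos were either irradiated with 40 Gy of gamma rays (2 arrays) or mock-treated (2 arrays). Wild-type embryos of strain yw gave 1 irradiated and 1 mock-treated array, and wild-type embryos of strain w1118 gave 2 of each. Each collection of about 1 g of pooled embryos spanned 0 to 2.5 h after egg laying, was aged for 2.5 h, was treated, and recovered for 1.5 h. An irradiated and a mock-treated collection of the same number form a set, which makes 2 Dmp53NS sets and 3 wild-type sets. How the Dmp53NS allele was made, and on what genetic background, was not stated in the labels. A difference from w1118 or yw can therefore belong to the allele or to the background.

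The p53 probe set (150416_at) gave signals of 104 to 213 in Dmp53NS, against 243 and 505 in yw and 233 to 499 in w1118, so it was lower in every mutant collection. Whether this probe lies in the altered part of the gene was not tested. All 9 embryo patterning genes that were named on the array (among them eve, ftz, Kr and twi) passed the signal filter. Median signal per array was 63.3 to 108, and the number of arrays limits the precision of every value. The yw arrays were hybridised on a day of their own, and stood apart: 16.0% and 16.8% of their probe sets were under a signal of 20, against 23.96% to 29.99% elsewhere. Set 1 of Dmp53NS and of w1118 shared hybridization day 2, and set 2 of both shared day 3. The ratio of the 3′ to the 5′ control probe sets of eIF-4a, a sign of RNA integrity, was 5.92 on the unirradiated Dmp53NS array of set 2 and 12.2 on the irradiated w1118 array of set 2, against 1.56 to 3.13 on the others.

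**Figure D1:**
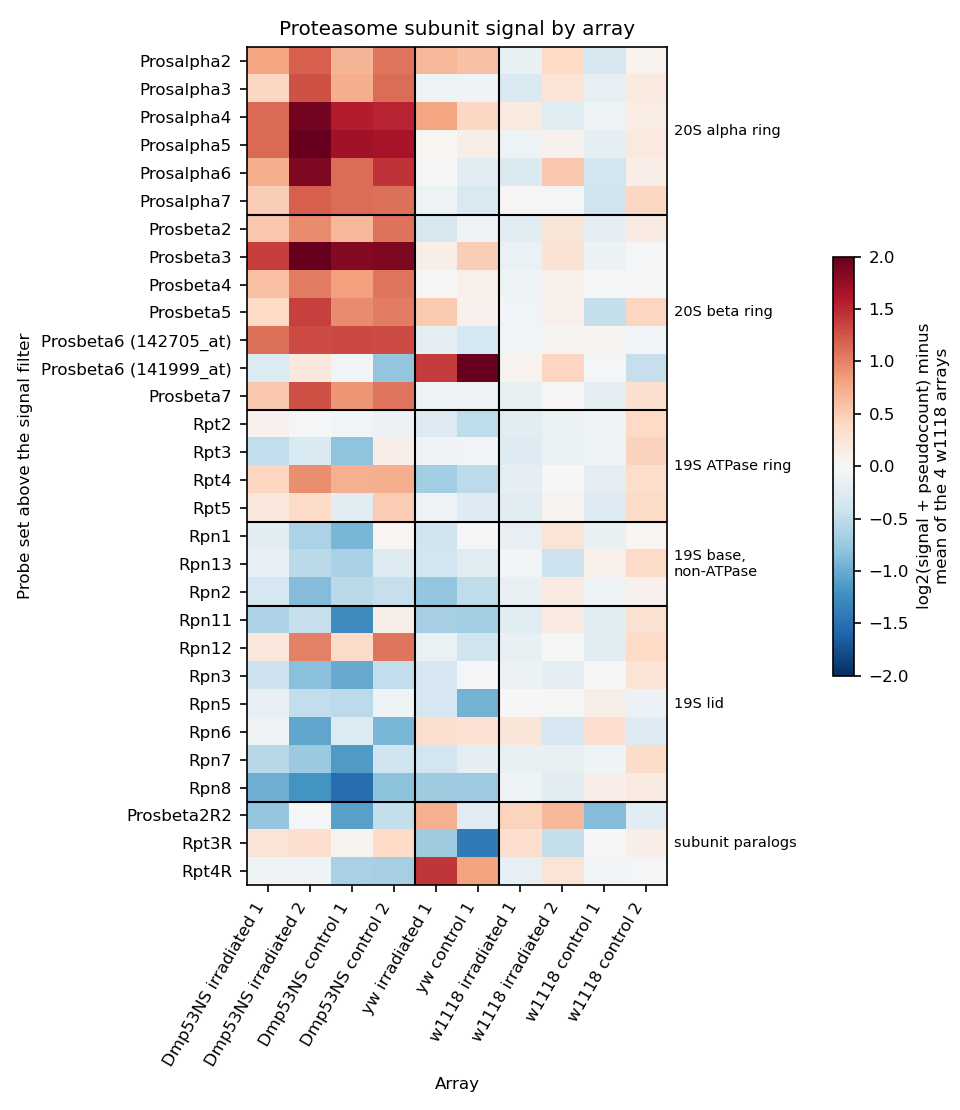
Signal of the 30 proteasome probe sets that passed the filter (rows, grouped by role) on the 10 arrays (columns, Dmp53NS, then yw, then w1118), as log2(signal + 14.6) minus the mean of the 4 w1118 arrays of the same probe set. Colours end at 2 in either direction. The 20S probe sets, except the dim Prosbeta6 probe set 141999_at, are red in the Dmp53NS columns, and most 19S probe sets are pale or blue there.

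In unirradiated Dmp53NS embryos, 4 of the 13 tested probe sets of the 20S core were higher than in unirradiated w1118 embryos at an adjusted p of 0.05. They were the only calls among the 30 subunit probe sets. Over all 8379 probe sets tested, 1.68% passed (1.37% higher and 0.310% lower). The 4 were Prosbeta3, Prosbeta6 (142705_at), Prosalpha5 and Prosalpha4, with differences of 1.34 to 1.84 on the log2(signal + 14.6) scale, which are folds of 2.53 to 3.58. Across the 13 core probe sets the median difference was 1.07 and 12 were positive. Across the 14 subunits of the 19S particle the median was -0.50, 11 were negative and 0 passed (limma). Of these 14, 5 had an unadjusted p under 0.05, as did 1455 of all 8379 probe sets. The median of all probe sets was -0.14, with 3436 positive and 4943 negative. The 19S median depended on the Dmp53NS set: without set 1 it was -0.09 with 7 of 14 negative, and without Dmp53NS set 2 it was -0.71 with 12 negative, while the core median was 1.14 and 1.03. Within the shared hybridization days the 19S median was -0.68 (day 2) and -0.42 (day 3). In bulk embryo RNA, a change in the number of cells of a type and a change in RNA per cell cannot be told apart.

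In what follows, the 4 signals of Dmp53NS or w1118 are those of irradiated sets 1 and 2 and of unirradiated sets 1 and 2, and the pair for yw is irradiated and unirradiated. Prosbeta3, a structural subunit of the beta ring, had signals of 2290.3, 3532, 3113.5 and 3199.5 in Dmp53NS, against 942.5 and 1222 in yw and 788, 1056, 798 and 842 in w1118. All 4 mutant values lay above all 6 wild-type values, and its unirradiated difference from w1118 was 1.84 ± 0.29 (SE; adjusted p = 0.0217). On the shared days that difference was 1.94 (day 2) and 1.91 (day 3).

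Prosbeta6, another beta subunit without a proteolytic site, had signals on its bright probe set (142705_at) of 3648.5, 4202, 4218.5 and 4189 in Dmp53NS, against 1496.5 and 1321 in yw and 1623, 1761, 1755 and 1622.5 in w1118. The mutant arrays again lay above all wild-type arrays, and those within each strain were close together. The unirradiated difference from w1118 was 1.34 ± 0.22 (adjusted p = 0.0223), with 1.26 and 1.36 on the 2 shared days. The other Prosbeta6 probe set, 141999_at, was dim, with 44, 66.9, 53.3 and 26.4 in Dmp53NS, against 171 and 330.3 in yw and 59.7, 80.6, 54.1 and 36.5 in w1118. Its mutant range overlapped both wild-type strains, and the highest values were those of yw, so the 2 probe sets of Prosbeta6 disagree.

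Prosalpha5, part of the gating ring, had signals of 1755, 3403, 2559 and 2519 in Dmp53NS, against 819 and 858 in yw and 738, 843, 700.3 and 906 in w1118. The lowest mutant value was far above the highest wild-type value, that of unirradiated w1118 set 2. The unirradiated difference was 1.65 ± 0.31 (adjusted p = 0.0317), with 1.85 on day 2 and 1.46 on day 3. Prosalpha4, also of the alpha ring, had signals of 1614, 2789.6, 2208 and 2136 in Dmp53NS, against 1272 and 977 in yw and 839, 616, 679 and 812 in w1118. The groups did not overlap, and the yw irradiated array was the highest of wild type. Its unirradiated difference was 1.60 ± 0.31 (adjusted p = 0.0347), with 1.68 and 1.38 on the shared days.

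**Figure D2:**
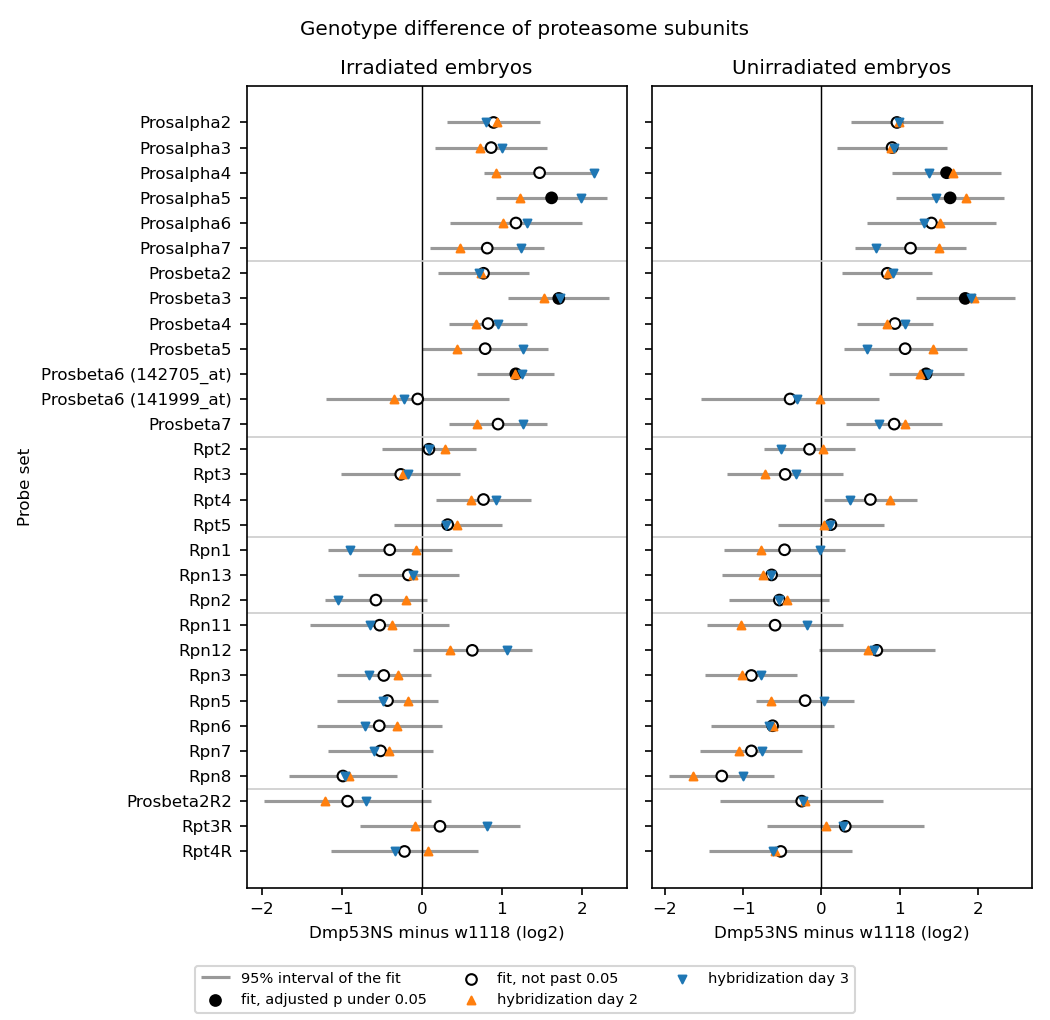
Difference Dmp53NS minus w1118 in log2(signal + 14.6) for the 30 probe sets, in irradiated embryos (left) and unirradiated embryos (right). Circles are the fitted differences with 95% intervals, filled where the adjusted p over all 8379 probe sets was under 0.05, and triangles are the single differences on hybridization days 2 and 3. The core probe sets, at the top, lie right of 0 with the exception of Prosbeta6 141999_at, and 3 and 4 of the circles are filled on the left and right.

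The 4 calls depended on single sets. Without Dmp53NS set 1, and likewise without set 2, 0 of 30 subunits passed, and 0 of 8379 probe sets did. Without yw, w1118 set 1 or w1118 set 2, 1 passed in each case, which was Prosbeta3. The sizes moved little: over the 16 alternatives run, Prosbeta3 stayed between 1.72 and 1.93 and Prosalpha5 between 1.48 and 1.80. With hybridization day as a fixed block and the arrays of a set taken as independent, 16 of 30 passed against 14.3% of all probe sets, namely 12 core probe sets and Rpn12 higher and Rpn3, Rpn7 and Rpn8 lower; this alternative was chosen after seeing the data.

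Irradiated Dmp53NS embryos compared with irradiated w1118 embryos gave 3 of 30 subunits past the threshold, all higher, against 0.979% of all probe sets (0.621% higher and 0.358% lower). They were Prosbeta3 at 1.71 ± 0.29 (adjusted p = 0.0232), Prosbeta6 (142705_at) at 1.18 ± 0.22 (adjusted p = 0.0333) and Prosalpha5 at 1.62 ± 0.31 (adjusted p = 0.0396). Prosalpha4 missed it at 1.47 ± 0.31 (adjusted p = 0.0549). The median was 0.90 over the 13 core probe sets, -0.41 over the 14 subunits of the 19S particle and -0.07 over all probe sets. Without Dmp53NS set 2 the 19S median was -0.23. Without yw, w1118 set 1, w1118 set 2 or Dmp53NS set 2, 0 of 30 passed, and without Dmp53NS set 1, 2 did. With day as a fixed block and the arrays of a set taken as independent, 14 passed against 13.7% of all probe sets. They were 12 core probe sets and Rpt4 higher, and Rpn8 lower. This alternative was chosen after seeing the data. Fitted values of the unirradiated and irradiated comparisons both draw in part on arrays of both treatments, through the irradiation term that yw and w1118 share.

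Set against the mean of yw and w1118, unirradiated Dmp53NS embryos had 8 of 30 subunits higher and 0 lower, while 6.55% of all probe sets passed (4.42% higher and 2.14% lower). Besides the 4 core subunits already described, these were Prosalpha6, Prosalpha7 (142853_at), Prosbeta2 and Prosbeta4. Prosalpha6 had signals of 2119.5, 4680.2, 2796 and 3509 in Dmp53NS, against 1276 and 1102 in yw and 1038, 1866, 969 and 1403 in w1118. Every mutant value exceeded every wild-type value, the nearest pair being irradiated Dmp53NS set 1 and irradiated w1118 set 2, and the difference from mean wild type was 1.46 ± 0.36 (adjusted p = 0.0406). Prosalpha7 had 1500.2, 2454, 2309 and 2296 in Dmp53NS, against 991 and 852 in yw and 1073, 1034, 803 and 1412.5 in w1118. The mutant arrays lay above the wild-type arrays, by a small margin between irradiated mutant set 1 and unirradiated w1118 set 2, and the difference was 1.24 ± 0.31 (adjusted p = 0.0430).

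Prosbeta2 carries the trypsin-like proteolytic site, and its signals were 3487, 4644, 3793 and 5108 in Dmp53NS, against 1922 and 2264 in yw and 2077, 2825, 2095.5 and 2691 in w1118. The groups did not overlap, and the difference of 0.94 ± 0.25 had an adjusted p of 0.0494. Prosbeta4, a beta subunit without a proteolytic site, had 4684, 6361, 5464 and 6488 in Dmp53NS, against 3140.4 and 3291 in yw and 2914, 3289.5, 3039 and 3094 in w1118. Its wild-type values were close together, all under the lowest mutant value, and the difference was 0.91 ± 0.21 (adjusted p = 0.0333). Prosbeta5, which carries the chymotrypsin-like site, had 2213, 4376, 3253 and 3424 in Dmp53NS, against 2415 and 1786 in yw and 1621, 1810.1, 1202 and 2272 in w1118. Here the yw irradiated array and unirradiated w1118 set 2 exceeded the lowest mutant array, and the difference of 0.92 ± 0.34 did not pass (adjusted p = 0.114).

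The other core subunits had differences of the same sign that missed the threshold. Prosalpha2 had 3396, 4536.5, 3143 and 4121.5 in Dmp53NS, against 3126.5 and 2956 in yw and 1766, 2597, 1568 and 2067 in w1118. The mutant arrays were above the wild-type arrays by a narrow margin over yw, and the difference from mean wild type was 0.65 ± 0.25 (adjusted p = 0.130). Prosalpha3, whose tail takes part in gating the core, differed by 0.95 ± 0.30 (adjusted p = 0.0808), and Prosbeta7 by 0.98 ± 0.27 (adjusted p = 0.0516). Both ranges lay above wild type, at 1416 to 2569 in Dmp53NS against 848 to 1276 in wild type for Prosalpha3, and at 3272 to 5447 in Dmp53NS against 1962 to 2814 in wild type for Prosbeta7.

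Over the 13 core probe sets, 11 had all 4 mutant arrays above all 6 wild-type arrays, against 8.21% of all probe sets: 6 of 6 alpha and 5 of 7 beta probe sets. The exceptions were Prosbeta5 and Prosbeta6 141999_at. Against the 4 w1118 arrays alone the count was also 11, with a background of 10.1%. Of the 8 calls, 0 were left without Dmp53NS set 1, 3 without Dmp53NS set 2, 3 without w1118 set 1 and 6 without w1118 set 2, and 0 when the unirradiated arrays were fitted alone. Quantile normalization kept 8 calls and moved the median of all probe sets to -0.06, against -0.20 as scaled by the authors. Under it the core median was 1.01 and the 19S median -0.44, against 0.98 and -0.31. The 19S median turned positive without Dmp53NS set 1, at 0.02 with 6 of 14 negative, and was -0.56 with 11 negative without Dmp53NS set 2, against 9 negative with both. The core median was 1.16 and 0.89 in those fits.

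The 19S particle held no subunit past the threshold in Dmp53NS against either wild type (limma). Against mean wild type 6 of its 14 subunits had an unadjusted p under 0.05, as did 2366 of all 8379 probe sets. The differences of its members had both signs. In the ATPase ring, which unfolds substrates, Rpt4 had 1804, 2569.5, 2189 and 2208 in Dmp53NS, against 823.5 and 927 in yw and 1170.5, 1343, 1181 and 1709 in w1118. All mutant values exceeded all wild-type values, the difference from mean wild type being 0.93 ± 0.26 (adjusted p = 0.0549). Rpt3 had 572, 653, 458 and 890.3 in Dmp53NS, against 767 and 780.5 in yw and 677, 735, 763 and 1119.9 in w1118. Those ranges overlapped, with an unirradiated difference from w1118 of -0.46 ± 0.34 (adjusted p = 0.506). Rpt2 and Rpt5 differed from unirradiated w1118 by -0.15 and 0.12, with standard errors of 0.26 and 0.31.

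The 3 non-ATPase subunits of the base had differences of -0.47 to -0.64 between unirradiated Dmp53NS and w1118, and 0 passed. Rpn13, a ubiquitin receptor, had 1198, 916, 855 and 1118.3 in Dmp53NS, against 1027 and 1133 in yw and 1289, 991.5, 1447 and 1751 in w1118. Mutant and wild-type arrays overlapped, and the unirradiated difference from w1118 was -0.64 ± 0.29 (adjusted p = 0.286). Rpn2, a scaffold of the base, had 552, 382, 481 and 513.5 in Dmp53NS, against 407 and 494 in yw and 636, 801, 657 and 754 in w1118. The mutant values lay under all w1118 values and among the yw values, and the irradiated difference from w1118 was -0.57 ± 0.29 (adjusted p = 0.357). Rpn1, the other scaffold, differed by -0.47 ± 0.35 when unirradiated (adjusted p = 0.515), with overlapping ranges.

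In the lid, 6 of 7 subunits were negative and the median difference of unirradiated Dmp53NS from w1118 was -0.62. Rpn8, the partner of the deubiquitinase Rpn11, had 436, 374, 297 and 489 in Dmp53NS, against 527 and 526 in yw and 829, 742, 958 and 998 in w1118. The 4 mutant values were the lowest of the 10 arrays, yw was intermediate, and the unirradiated difference from w1118 was -1.27 ± 0.30 (adjusted p = 0.0620). The differences on the shared days were -1.64 and -1.01, and averaged over both treatments, an alternative chosen after seeing the data, Rpn8 was lower, with a difference of -1.13 ± 0.24 (adjusted p = 0.0252). In that averaged comparison 9 core subunits were higher and Rpn8 lower, 10 of 30, against 5.93% of all probe sets.

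Rpn3, a structural lid subunit, had 1916, 1427, 1260 and 1801.5 in Dmp53NS, against 2013 and 2475 in yw and 2355, 2258, 2569.5 and 3076 in w1118. Mutant and wild-type ranges were separate by a small margin against the yw irradiated array. The unirradiated difference from w1118 was -0.90 ± 0.27 (adjusted p = 0.124). Rpn7, of the same structural family, had 1175, 1034, 779 and 1317 in Dmp53NS, against 1319 and 1521 in yw and 1564, 1566, 1634.5 and 2248 in w1118. Its highest mutant value was next to the lowest wild-type value without overlap, and the difference was -0.90 ± 0.30 (adjusted p = 0.156). With Rpn8 these make 3 of 14 subunits of the 19S particle under all wild-type arrays, against 6.21% of all probe sets. Rpn2 joins them, for 4 of 14, when w1118 alone is the comparison (11.8% of all probe sets).

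Rpn11, the deubiquitinase of the lid, had 729, 816, 463 and 1228 in Dmp53NS, against 709 and 699.7 in yw and 951, 1286, 962 and 1394 in w1118. Unirradiated Dmp53NS set 1 was the lowest array and set 2 was inside the w1118 range, and the difference was -0.59 ± 0.39 (adjusted p = 0.464). Rpn5 and Rpn6, structural subunits, differed by -0.21 and -0.62 and did not pass (adjusted p = 0.740 and 0.391). Rpn12, which joins the lid last during assembly in yeast, was the one lid subunit with a positive value, at 0.71 ± 0.34 (adjusted p = 0.306). Its signals were 1341 to 2456 in Dmp53NS against 879 to 1539 in wild type, with a small overlap.

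The contrast between the core and the regulatory particle was read within each array as the mean log2 signal of the 12 core genes minus that of the 14 genes of the 19S particle, with the brighter probe set where a gene had several. Because probes differ in response, only its change between arrays carries information. It was 1.11 and 1.92 in irradiated and 1.79 and 1.47 in unirradiated Dmp53NS (sets 1 and 2). In yw it was 0.59 irradiated and 0.52 unirradiated, and in w1118 0.13 and 0.34 irradiated and -0.04 and 0.05 unirradiated. All mutant values lay above yw, and yw above w1118. The geometric mean of the core genes was 2433 to 3923 in Dmp53NS, 1475 and 1538 in yw and 1227 to 1593 in w1118, whereas that of the 19S genes was 880 to 1241 in Dmp53NS, 1018 and 1024 in yw and 1197 to 1535 in w1118.

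**Figure D3:**
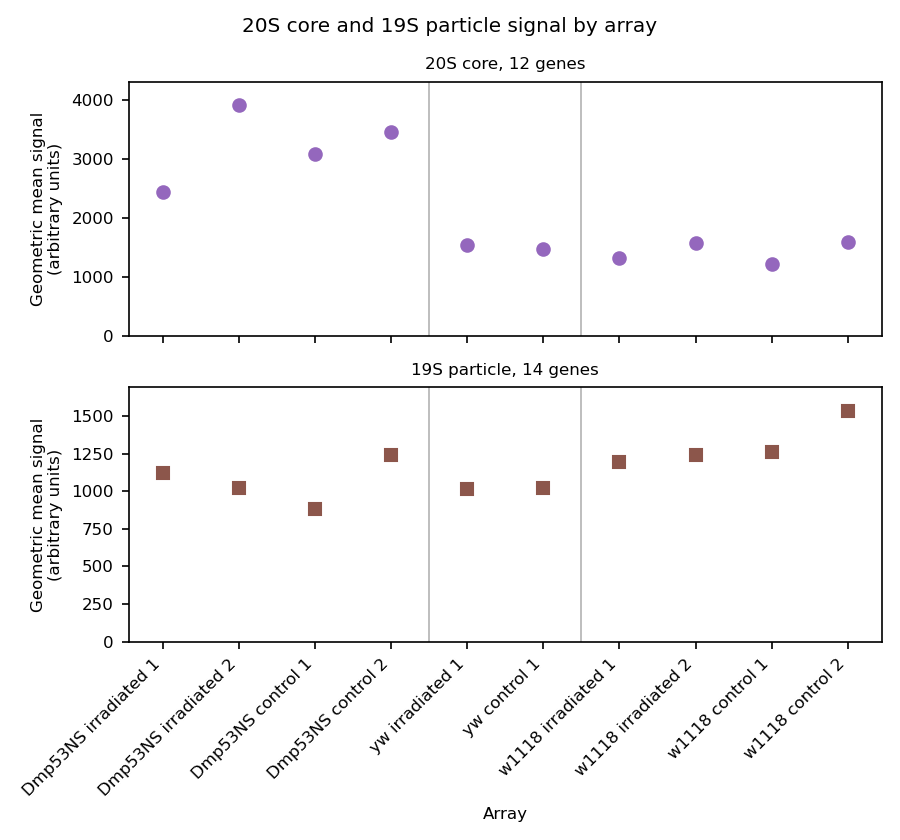
Geometric mean signal (linear axes from 0, of different height) of the 12 core genes and of the 14 genes of the 19S particle on each array, by strain and treatment. The core values of Dmp53NS, 2433 to 3923, sit above all wild-type values, which end at 1593, while the 19S values of the strains overlap.

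Other features moved with genotype on the same arrays. Relative to unirradiated w1118, 9 of 9 embryo patterning markers were negative (median -0.47, 0 passed), and their summed signal was 2649 to 4891 in Dmp53NS against 5821 and 6951 in yw and 4577 to 6961 in w1118. Of 8 tested probe sets for maternal transcripts, 6 were positive and 2 negative in unirradiated Dmp53NS against w1118 (median 0.70), and 4 were positive and 4 negative in irradiated embryos (median -0.18). Those of bcd (3.06 ± 0.44, adjusted p = 0.0217) and swa (2.38 ± 0.41, adjusted p = 0.0276) were higher in unirradiated Dmp53NS. The lowest was gcl, with 229 to 313 in Dmp53NS, against 310 and 365 in yw and 393 to 519 in w1118, a difference of -0.57 ± 0.30 that did not pass (adjusted p = 0.354). In irradiated embryos 2 of the 8 maternal probe sets passed as higher and 0 as lower. On days 2 and 3 the irradiated differences were 1.93 and 3.29 for bcd, and 1.16 and 2.81 for swa. The maternal list had summed signals of 3980 to 5415 in Dmp53NS against 2084 and 2387 in yw and 2040 to 4740 in w1118. The maternal genes exu and vas were under the filter. Testis markers summed to 254 to 537 in Dmp53NS, 784 and 1229 in yw and 389.5 to 475 in w1118, and markers of adult ovary and fat body to 408 to 539 in Dmp53NS, 1066 and 1388 in yw and 492 to 658 in w1118. The part of embryo stage or egg content in the proteasome differences was not tested. On day 2, whose arrays had eIF-4a ratios of 1.95 to 2.14, the median core difference from w1118 was 0.74 irradiated and 1.26 unirradiated. On day 3, which held the 2 arrays with high ratios, it was 1.25 irradiated and 0.99 unirradiated.

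The wider pathway was examined through 67 probe sets of 59 other genes of the ubiquitin system, of which 59 probe sets passed the filter. In unirradiated Dmp53NS against w1118, 2 of 59 were higher and 0 lower, against 1.37% higher and 0.310% lower over all probe sets. Rad23, a shuttle that brings ubiquitylated proteins to the proteasome, had 2256, 2358, 3032 and 1978 in Dmp53NS, against 1414 and 1094 in yw and 1189, 963.5, 1150.2 and 688 in w1118. The mutant arrays were all above wild type, and the difference was 1.46 ± 0.30 (adjusted p = 0.0421). STUB1, the fly CHIP ubiquitin ligase that works with chaperones, had 613, 1093, 1051 and 604.5 in Dmp53NS, against 126 and 123 in yw and 129, 181, 127 and 113 in w1118. Each mutant value was far above every wild-type value, with a difference of 2.55 ± 0.40 (adjusted p = 0.0217), and it also passed in irradiated embryos at 2.36 ± 0.40 (adjusted p = 0.0247).

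Genes that regulate or assemble the proteasome had a median of -0.46 over 9 probe sets against unirradiated w1118, and 0 passed. Pomp, the chaperone that assembles the 20S core, had 562, 1526, 807 and 1366 in Dmp53NS, against 221 and 208 in yw and 359, 769, 301 and 756 in w1118. Set 2 was high in both Dmp53NS and w1118, and the ranges overlapped across the hybridization days. Within the days Dmp53NS was above w1118 in each of 4 pairs, by 1.38 (day 2) and 0.84 (day 3) unirradiated and by 0.62 and 0.98 irradiated. The fitted unirradiated difference was 1.102 ± 0.51 (adjusted p = 0.298). PI31, a proteasome-binding regulator, had 371.5, 388, 348 and 309.5 in Dmp53NS, against 620.1 and 568 in yw and 479, 630.2, 589.9 and 569.9 in w1118. All mutant values were under all wild-type values, with a difference of -0.76 ± 0.27 that did not pass (adjusted p = 0.184).

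Against mean wild type, 3 of 59 pathway probe sets were higher (STUB1, Rad23 and the ubiquitin ligase sina, 1.53 ± 0.28) and 3 lower. Over all probe sets 4.42% were higher and 2.14% lower, so the pathway's share of higher calls is near the background. The lower ones were Ubi-p63E, a polyubiquitin gene (-1.29 ± 0.30), and one probe set each of Usp14 (142058_at, -1.67 ± 0.37), a deubiquitinase of the 19S particle, and Dref (142003_at, -2.02 ± 0.49), a transcription factor. These Usp14 and Dref probe sets were brightest on the yw arrays, and Usp14 142058_at had 37.5 to 56.8 in Dmp53NS, against 387 and 456 in yw and 56.1 to 79.8 in w1118. Dref 142003_at had 15.2 to 23.1 in Dmp53NS, against 640 and 319 in yw and 18.7 to 43.3 in w1118. It passed the signal filter only because of its yw values, so its lower call reflects the yw arrays. The brighter Usp14 probe set (142863_at) had 637 to 1052 in Dmp53NS, against 826 and 796 in yw and 1010 to 1215 in w1118, and did not pass. The second Dref probe set (142713_at) differed by 0.42 ± 0.27 and did not pass (adjusted p = 0.311). The fly counterparts of factors that raise proteasome gene transcription under proteasome stress in mammals are cnc and maf-S. Of 4 cnc probe sets 2 were tested, and maf-S has 1, and these 3 did not pass in any comparison.

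Irradiation left the proteasome genes of wild-type embryos without a call: 0 of 30 passed (limma), and 0.239% of all probe sets passed, all higher. An unadjusted p under 0.05 was found for 1 of the 30 and for 683 of all 8379 probe sets. The median irradiated minus unirradiated difference was -0.04 over the 30, 0.04 over the core and -0.11 over the 19S particle, against -0.01 over all probe sets. Of the 14 subunits of the 19S particle 13 were negative. The 19S median was -0.01 in the yw set, -0.08 in w1118 set 1 and -0.38 in w1118 set 2, the set that holds the array with an eIF-4a ratio of 12.2, whose part in this was not tested. Without yw the 19S median was -0.19, and without w1118 set 2 it was -0.09 with 9 of 14 negative. Standard errors were 0.18 to 0.24 for the core and 19S subunits other than Prosbeta6 141999_at. Their 95% intervals ran no higher than 0.66 and no lower than -0.83. The paralog Prosbeta2R2 had the largest value, 1.05 ± 0.41 (adjusted p = 0.460), with per-set differences of 0.94 in yw and 1.31 and 0.90 in w1118, and 0.31 and 0.44 in the Dmp53NS sets. Its signals were dim, at 28.7, 57.9, 20.3 and 38.8 in Dmp53NS, against 107 and 48.5 in yw and 85.8, 103, 25.8 and 48.4 in w1118. In each wild-type set the irradiated array was the higher one.

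The lowest values in wild type were those of Rpn13 (-0.37 ± 0.22, adjusted p = 0.709), Rpn3 (-0.29 ± 0.21, adjusted p = 0.785) and Rpt3 (-0.26 ± 0.23, adjusted p = 0.842), none past the threshold. The largest positive values after Prosbeta2R2 were Rpt4R at 0.26 and Prosalpha6 at 0.24, and neither passed.

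In Dmp53NS embryos 0 of 30 passed after irradiation (limma; 0 with an unadjusted p under 0.05), as did 0 of all 8379 probe sets, of which 134 had an unadjusted p under 0.05. The 2 mutant sets ran against each other. The core median of irradiated minus unirradiated was -0.34 in set 1 and 0.16 in set 2, and the 19S median 0.41 in set 1 and -0.34 in set 2. Prosalpha5 differed by -0.54 and 0.43, and Rpn1, the scaffold of the base, by 0.70 and -0.66. The median of all probe sets was 0.12 in set 1 and -0.05 in set 2.

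The irradiation effect in Dmp53NS minus that in wild type did not pass for any of the 30 (limma; 0 with an unadjusted p under 0.05), and 0.0119% of all probe sets passed. The core median of that difference was -0.11 and the 19S median 0.17. Without Dmp53NS set 1 both turned, to 0.17 for the core and -0.09 for the 19S particle, and without Dmp53NS set 2 they were -0.27 and 0.53. Without w1118 set 2 they were -0.06 and 0.06. Its most extreme members were Prosbeta2R2 at -0.67 ± 0.65, Rpn13 at 0.47 ± 0.35, Rpn3 at 0.42 ± 0.33, Rpn7 at 0.38 ± 0.34, Prosalpha7 at -0.32 ± 0.35 and Prosbeta5 at -0.28 ± 0.34, with an adjusted p of 0.9998 for each. The value of Prosbeta2R2 rests on the same irradiated wild-type arrays that carried it past the signal filter. The 95% interval was -1.05 to 0.41 for Prosalpha7 and -0.26 to 1.20 for Rpn13. Such intervals, not adjusted for the number of probe sets tested, hold the differences compatible with these 5 sets. They are not detection limits.

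**Figure D4:**
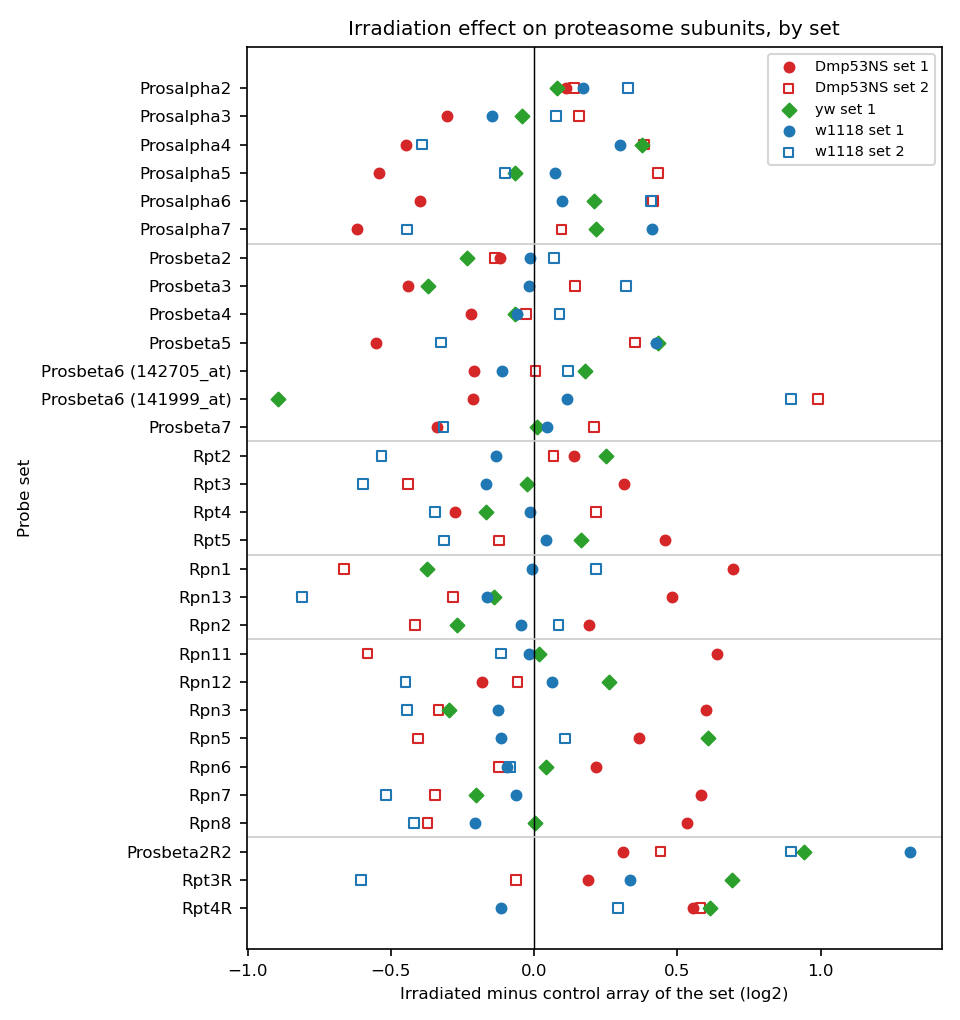
Irradiated minus unirradiated difference in log2(signal + 14.6) for each of the 30 probe sets in each set (2 Dmp53NS, 1 yw and 2 w1118). Points of the 5 sets scatter around 0; Prosbeta2R2 is right of 0 in all 5, and the Dmp53NS sets fall on opposite sides of 0 for most core and 19S subunits.

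The strains yw and w1118 were compared with both treatments pooled in 1 strain term. None of the 30 passed (0 calls in limma), against 5.78% of all probe sets (3.00% higher and 2.78% lower in yw). An unadjusted p under 0.05 was found for 8 of the 30 and for 2197 of all 8379 probe sets. Strain and hybridization day cannot be told apart here. The core median was 0.06 and the 19S median -0.30, with 13 of 14 subunits of the 19S particle negative, while the median of all probe sets was 0.01. The core median was -0.06 without w1118 set 1 and 0.22 without w1118 set 2. Prosalpha2 had the highest value among the bright core probe sets, at 0.63 ± 0.26 (adjusted p = 0.161), and the lowest 19S values were Rpn8 at -0.72 ± 0.30 (adjusted p = 0.161) and Rpn11 at -0.67 ± 0.39 (adjusted p = 0.295).

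The largest strain differences were in dim probe sets. Prosbeta6 141999_at differed by 1.84 ± 0.51 (adjusted p = 0.0581), with both yw arrays above every other array. The paralog Rpt4R had 52.5, 53, 31.1 and 30.6 in Dmp53NS, against 177 and 110.4 in yw and 48.9, 70.7, 54.2 and 55 in w1118. The yw arrays were again the highest, with a difference of 1.12 ± 0.41 (adjusted p = 0.120). Prosbeta6 141999_at and Rpt4R passed the signal filter only because of their yw values. The filter therefore in part selected them for high signal in yw, and their differences are not read as strain traits of these genes. Another ATPase paralog, Rpt3R, had 90.1, 96, 77.3 and 101 in Dmp53NS, against 38.7 and 18.4 in yw and 96.3, 48.3, 73.3 and 81.1 in w1118. Here yw was lowest, at -1.06 ± 0.45 (adjusted p = 0.165). The smaller share of very dim probe sets on the yw arrays moves with the high yw values of Prosbeta6 141999_at and Rpt4R. It does not move with the low yw values of Rpt3R. Its part in these differences was not tested.

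The other paralogs were near the bottom of the signal range and were not tested. Prosalpha3T, Prosalpha4T1, Prosalpha4T2, Prosalpha6T, Prosbeta2R1, Prosbeta4R1, Prosbeta4R2, Prosbeta5R1, Rpn12R and Rpn13R had mean signals of 9.05 to 33.3, and Prosalpha7 142055_at had 23.7. The highest array was in Dmp53NS for Prosalpha4T2 (58.9), Rpn12R (44.6) and Prosbeta4R2 (25.5), and in yw for the others. The share of all dim probe sets with their highest array in yw was not computed. On the yw arrays 16.0% and 16.8% of all probe sets were under a signal of 20, against 23.96% to 29.99% elsewhere. A highest array in yw is therefore not read as a trait of these genes. The highest values in yw were 107 for Prosalpha7 142055_at unirradiated, 94.5 for Prosbeta4R1 irradiated and 75.1 for Prosalpha3T unirradiated.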

How the data were processed

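RNA of 10 whole-embryo collections was measured on Affymetrix Drosophila genome arrays. The deposited values are intensities, MAS5 signals per the submitters' processing notes (version not given in the sources used here), which the authors had scaled: the trimmed mean (2% from each end) is 250.04 on every array. Probe sets were named through the platform annotation: 12443 carry 1 gene symbol, 327 several and 1196 none, and 44 controls were left out. One probe set shared by Prosalpha1 and Prosalpha1R therefore is no member. The members and gene lists were chosen with earlier results of these data known.

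Signals were taken as log2(signal + 14.6), the 20th percentile of all signals, and probe sets with a mean signal at or under 53.36 (the 40th percentile) were dropped, leaving 8379. R 4.3.3 and limma 3.58.1 (lmFit, eBayes with trend) were used, with Benjamini-Hochberg adjustment over all 8379 and a threshold of 0.05. Irradiation comparisons used all 10 arrays with the set as a fixed block (3 residual and 18.1 prior degrees of freedom). Strain comparisons used strain terms and an irradiation term per genotype, and the set entered as a random effect with a consensus correlation of 0.2 (degrees of freedom: 5 residual, 5.73 prior). The submitters state that the sets are paired. In the check, the deviation of an array from its genotype and treatment mean was correlated between the 2 arrays of a set. The values were 0.639 in yw, 0.653 and 0.584 in w1118 and 0.428 in Dmp53NS, where 2 sets give the same value by construction. The wild-type means pooled yw and w1118, so differences of strain and hybridization day enter the wild-type correlations. In Dmp53NS the 2 sets were hybridised on different days, so day enters that correlation too. These correlations therefore cannot decide whether the wild-type or the Dmp53NS sets are paired. The submitters call the sets biological replicates. In the irradiation comparisons, p-values measure the spread of the within-set differences between sets. In the strain comparisons they mix the spread between sets with that between the 2 arrays of a set. The 1 yw set gives no spread between sets. Both kinds of fit also borrow spread from the other probe sets through the prior. Per-array values were named after a fixed rule: every member past 0.05 in any comparison and, per comparison, up to 3 with the highest and 3 with the lowest values. The scripts were tested on simulated data. Alternatives covered the filter, the pseudocount, quantile normalization, the variance trend, the blocks, the arrays fitted and leaving out each set. Sequences and genome positions were not used here.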

Additional observations from a re-analysis of the deposited data

How the results depend on the processing

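No result turned its direction past the threshold under any alternative, and over the single genes named 557 alternative values kept their side of the threshold, 82 lost a call and 16 gained one. The irradiation comparisons gave 0 of 30 subunits under every alternative run, also with no replicate block and with the set as another kind of block. For unirradiated Dmp53NS against w1118 (4 calls), 1 was left with no variance trend and 1 with the arrays of the compared strains alone, and 0 to 1 when each set was left out in turn. There were 19 with hybridization day as a fixed block beside the random set block, 16 with that day block and no replicate block, and 10 for the mean over both treatments. The day fit with both blocks had a within-set correlation of -0.567 and called 19.1% of all probe sets. For irradiated Dmp53NS against w1118 (3 calls), 0 were left with no variance trend, 0 with the compared strains alone and 0 to 2 when each set was left out, against 14 with the day block, with or without the replicate block. Against mean wild type (8 calls), 4 were left with no filter, 3 with no variance trend, 0 with the unirradiated arrays alone and 0 to 6 when each set was left out; leaving out yw gives no value there. With no replicate block the strain comparisons gave 4, 3 and 7 calls. For yw against w1118 (0 calls), 2 passed with no filter, 1 with a pseudocount of 58.4 and 1 with no replicate block.

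The median over the subunit probe sets left by a filter at 142.51 was 0.67 (unirradiated against w1118), 0.70 (irradiated) and 0.75 (mean wild type), since dim probe sets dropped out. With no filter it was -0.026 (mean wild type) and 0.061 (yw). These medians cover other probe sets than the 30 of the main filter. When each set was left out in turn, the median over the 30 ran from 0.052 to 0.48 in unirradiated and from 0.26 to 0.71 against mean wild type. It ran from -0.30 to 0.0039 in yw, and from -0.012 to 0.13 for irradiation in Dmp53NS. The cause was not tested. Leaving out a set leaves 1 Dmp53NS or w1118 set, whose spread is then assumed to be that of the other groups.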
